A study of Bos taurus with 79 samples.

Results

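The genes described here encode the collagens, the laminins and the integrins, together with dermatopontin (DPT), a small protein that binds collagen fibrils. Members were all probe sets whose single gene symbol in the array's annotation had the form of a collagen chain (COL, a number, A and a number), of a laminin chain (LAMA, LAMB or LAMC with a number) or of an integrin (ITGA or ITGB with any ending), plus DPT. The rule used names only, but it was chosen with earlier results of these data known. It found 100 probe sets of 52 genes, among 24016 probe sets of which the named ones represent 9155 genes. Collagens had 48 probe sets of 23 genes, laminins 11 of 5 genes, integrin subunits 33 of 19 genes and DPT 1. The last 7 probe sets, of 4 genes (ITGB1BP1, ITGB1BP2, ITGB3BP and ITGBL1), carry an ITGB symbol but encode proteins that are no integrin subunit.

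Fibrillar collagens form the tensile fibres of connective tissue, while collagen IV and the laminins build the basement membrane under epithelium and around vessels and muscle cells. Integrins are paired alpha and beta receptors that fasten cells to this matrix. In the uterus the stroma makes most of the fibrillar collagen, and in ruminants integrins of the luminal epithelium are studied as attachment sites for the conceptus, which in cattle elongates for a long time in the lumen before it attaches.

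Endometrium of cross-bred beef heifers, all synchronised for estrus, was hybridised to bovine Affymetrix arrays, 1 array for each of 79 animals. Heifers were either cyclic or pregnant after insemination, and had either normal progesterone or progesterone raised by a vaginal releasing device, inserted on day 3 and left in place until slaughter on day 5, 7, 13 or 16. In the names of the 4 arms of each day, C or P stands for cyclic or pregnant and N or H for normal or high progesterone, which gives CN, CH, PN and PH. Each of the 16 groups held 5 arrays except day 7 CH, which held 4, and the labels call them biological replicates. The RNA came from strips of whole endometrium, so stroma, epithelium, vessels and any muscle were measured together, and fewer cells of a type cannot be told apart from less RNA per cell.

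Values are log2 expression levels per probe set, in which 1 unit is a factor of 2. Array medians ran from 4.71 to 5.12, and the number of arrays limits the precision. A mean under 3 lies near the floor of the scale, where differences are compressed: 41 members lay there, or 41% against 32.2% of all probe sets. Of 8 markers of stroma, VIM and DCN were high (means of 12.66 and 14.04), while PDGFRB and NT5E were low (4.06 and 3.19). PDGFRA, THY1, LUM and FAP lay between, from 8.83 to 11.38. The uterine gene HOXA10 was at 9.72, but the receptors PGR and ESR1 read near the floor (2.78 and 2.50). The mean of 10 smooth muscle markers was above 10 in 3 arrays (PN 4 of day 5, PH 5 of day 7 and PH 4 of day 13) and the mean of 10 leukocyte markers reached 7.82 in CH 3 of day 5, against day medians of 4.38 to 4.69. Results that rest on these arrays are also given without them.

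Across the days, the members' main movement was a fall of collagens, and among integrins some subunits rose late. From day 5 to day 7, averaged over the 4 arms, 28 of the 100 members fell and 1 rose at an adjusted p under 0.05 (limma), while of all probe sets 11.8% fell, 8.84% rose and 20.7% changed either way. The members' median difference was -0.09 against 0.01 for all probe sets. From day 7 to day 13, 25 members fell and 8 rose, against 18.1% and 18.8% of all probe sets. That total of 33 lies near the 36.9% of all probe sets that changed. From day 13 to day 16, 9 fell and 6 rose, against 3.62%, 5.03% and 8.65% either way. A difference between any of the days was called for 59 members against 54.7% of all probe sets. Of the 29 members called in the first step, 24 had the same sign in all 4 arms, as had 32 of 33 in the second and 11 of 15 in the third. No gene had probe sets called in opposite directions within a step.

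**Figure D1:**
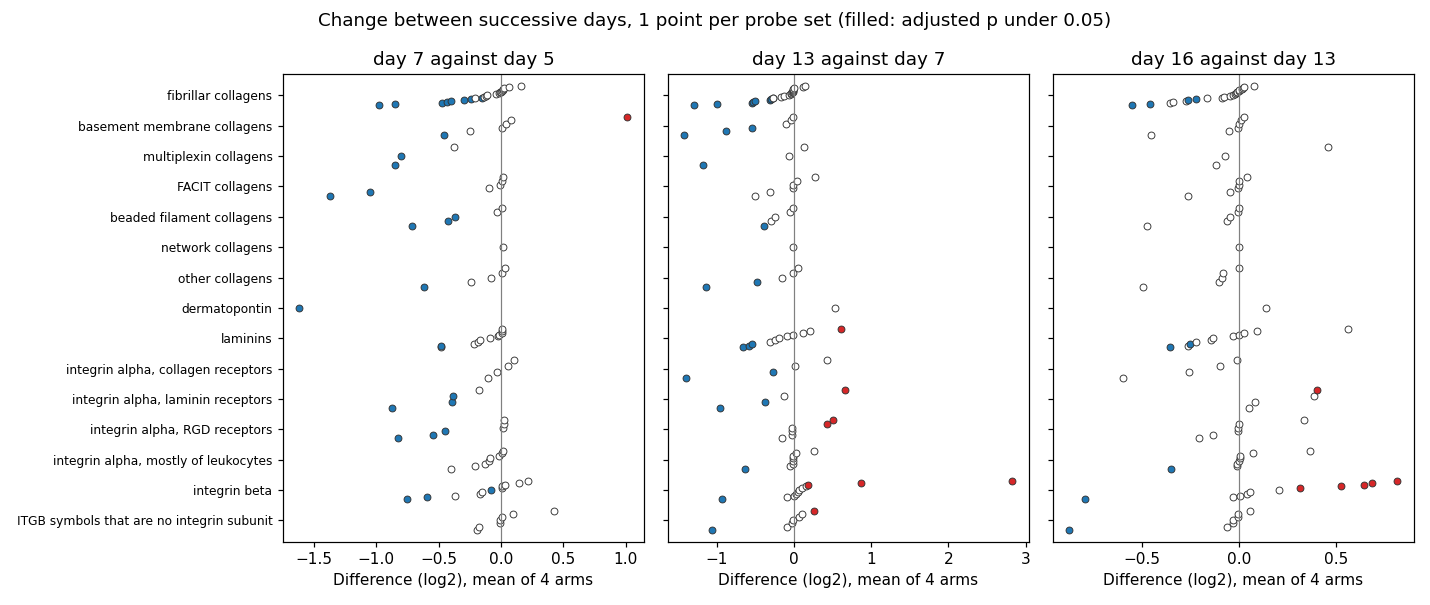
Differences between successive days (log2, mean of the 4 arms), with 1 point per probe set in each subfamily; filled points had an adjusted p under 0.05, blue lower and red higher on the later day, and the 3 panels have different scales. The collagen rows hold 17 lower and 1 higher filled points in the first panel and 15 lower and 0 higher in the second, while the integrin rows hold all 6 red points of the third panel.

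Among the fibrillar collagens, COL1A1, a chain of the abundant type I collagen, fell the furthest over the whole course. Its well-expressed probe set read from 10.75 to 12.24 on day 5 (median 11.65), from 9.72 to 12.25 on day 7 (median 10.68), from 9.07 to 10.48 on day 13 (median 9.73) and from 8.63 to 10.44 on day 16 (median 9.37). All 20 arrays of day 16 lay below all 20 of day 5. Between neighbouring days the ranges overlapped, with 11 of the 19 arrays of day 7 below every array of day 5. The step from day 5 to day 7 was -0.85 ± 0.16 (SE, adjusted p = 2.34e-05) and that from day 7 to day 13 was -0.998 ± 0.16 (adjusted p = 1.93e-07), each close to a factor of 2 (1.80 and 2.00). From day 13 to day 16 the difference of -0.34 ± 0.15 did not pass (adjusted p = 0.185). The second COL1A1 probe set read 2.05 on average, at the floor, and was not called.

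COL1A2, the partner chain of type I collagen, and COL3A1, the type III chain, were among the brightest signals of the array and fell by less. COL1A2 fell at every step on the probe set with a mean of 11.97, by 0.43, 0.50 and 0.46 in turn (SE 0.10 each, adjusted p = 0.00109, 5.08e-05 and 0.00147). Its other probe set, with a mean of 14.12, fell by 0.24 and 0.30 in the first pair of steps. The levels of both COL3A1 probe sets, with means of 14.21 and 14.14, lie close to the highest values of the arrays (14.92 to 15.37). There COL3A1 fell by 0.28 and 0.30 from day 7 to day 13 and by 0.22 and 0.26 from day 13 to day 16. Its drop from day 5 to day 7 was called on 1 probe set only (-0.15 ± 0.06, adjusted p = 0.0492), and that call was lost in 27 of 39 fits that each left out 1 array, in both other scalings and without the arrays rich in smooth muscle markers.

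The minor fibrillar chains followed in part. COL5A2, a chain of type V collagen that sits inside type I fibrils and limits their width, had day means of 10.36, 9.41, 8.85 and 8.78. Its range was 9.35 to 11.22 on day 5 (median 10.38) and 8.27 to 10.64 on day 7 (median 9.32), so the days overlapped, with 10 arrays of day 7 below all of day 5. The steps were -0.98 ± 0.13 (adjusted p = 2.21e-08) and -0.53 ± 0.13 (adjusted p = 0.000511). The second of these was negative in CN, PN and PH but not in CH. COL5A3 fell by 0.47 from day 5 to day 7 and by 0.55 from day 13 to day 16. COL2A1, the chain of cartilage collagen, was low on its 1 probe set above the floor (day means 5.15, 5.11, 3.81 and 3.46) and fell by 1.29 ± 0.23 from day 7 to day 13. COL27A1 fell by 0.54 ± 0.18 in that step on its brighter probe set, or by 0.45 without the arrays far from their group mean, where the call was lost (adjusted p = 0.0568). Near the floor, COL27A1 and COL2A1 each had a further probe set called lower on day 7 than on day 5, by 0.40 and 0.29. COL11A1 and COL11A2, with 8 probe sets in all, had none called in any step.

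**Figure D2:**
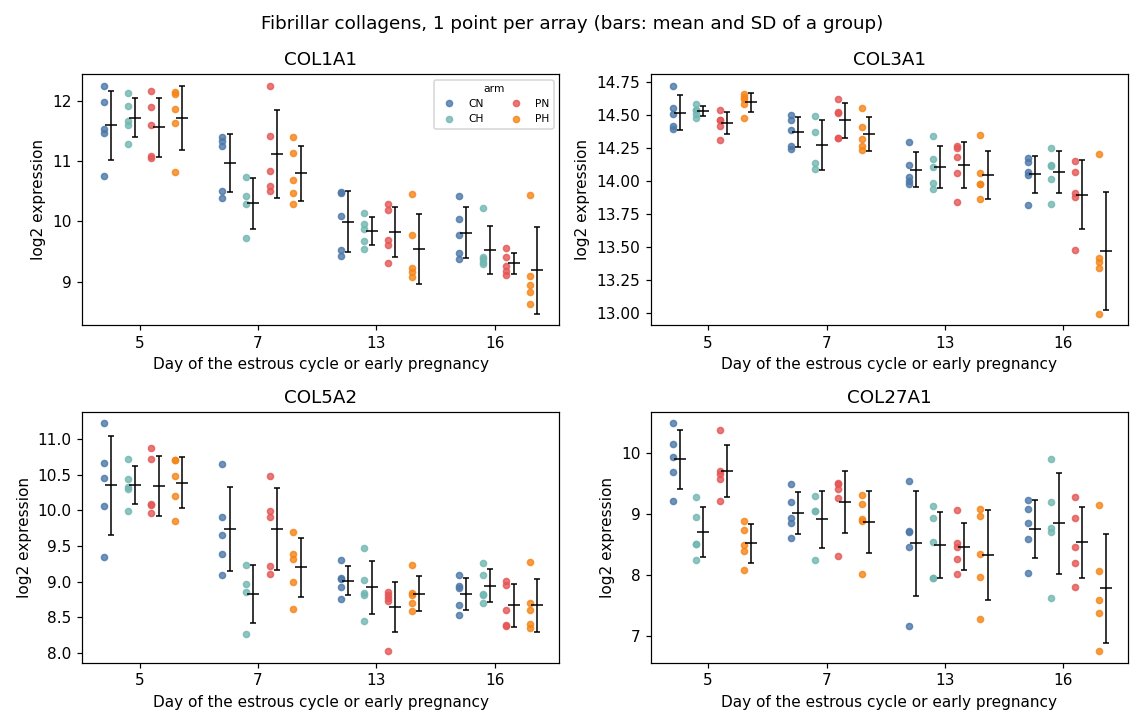
Log2 levels of 4 fibrillar collagen probe sets against day, with 1 point per array coloured by arm and black bars for the mean and SD of each group (n = 5, day 7 CH n = 4). COL1A1 and COL5A2 step down from day 5 to day 13, COL3A1 falls within a narrow range near the top of the scale and spreads on day 16, and COL27A1 splits by progesterone arm on day 5.

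Collagens of the basement membrane and of vessel walls changed at different steps. COL4A1, a chain found in every basement membrane, fell by 0.45 ± 0.11 from day 5 to day 7 on its brighter probe set (adjusted p = 0.000792) and by 0.55 ± 0.11 from day 7 to day 13 on the other (adjusted p = 2.87e-05); each probe set missed the threshold at the other's step, with the same sign. COL4A4 fell by 0.88 ± 0.27 from day 7 to day 13. COL4A3 was the only collagen that rose in any step, by 1.02 ± 0.23 from day 5 to day 7, after which it fell by 1.42 ± 0.23, but its day means of 2.71, 3.72, 2.30 and 2.31 reach above the floor on day 7 alone.

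COL15A1 and COL18A1 are multiplexins, collagens that link basement membranes to the tissue beneath. COL15A1 read 10.72 to 11.87 on day 5 (median 11.32) and 9.49 to 11.13 on day 7 (median 10.65). Most arrays separated, 15 of day 5 lying above all of day 7, and the step was -0.85 ± 0.14 (adjusted p = 2.74e-06), with -0.80 ± 0.14 on the second probe set. COL15A1 then stayed near its day 7 mean. COL18A1 instead fell between day 7 and day 13, by 1.18 ± 0.17 (adjusted p = 6.26e-08), from a median of 6.88 to one of 5.48, and 17 of the 19 arrays of day 7 lay above all of day 13.

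The remaining collagens that moved also fell. COL12A1, which coats fibrils, fell by 1.37 ± 0.30 and 1.05 ± 0.23 from day 5 to day 7 on 2 probe sets. COL12A1 followed the smooth muscle markers from array to array within groups (r = 0.75 and 0.74, 79 arrays of the same libraries), and without the arrays rich in those markers the differences were -1.40 and -1.08. COL6A1 and COL6A2, chains of the beaded filaments around cells, fell in the same step, COL6A1 by 0.72 and 0.37 on 2 probe sets and COL6A2 by 0.43. The larger COL6A1 change lost its call in 6 of 39 fits without 1 array, where it lay between -0.67 and -0.64. The smaller COL6A1 change belongs to the brighter probe set, which fell by a further 0.39 to day 13. COL13A1, a transmembrane collagen, fell by 0.61 and 0.48 in the first pair of steps. COL26A1, described in reproductive organs, fell by 1.13 ± 0.20 from day 7 to day 13 on the probe set with a mean of 3.88. Its second probe set, with a mean of 3.11, differed by -0.15 and was not called. The probe sets of COL9A1, COL10A1, COL17A1 and COL21A1 and the third one of COL12A1 had means under 3 and none was called.

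DPT, added to the name patterns as a single gene, fell by the most of all members from day 5 to day 7. This rank is a description only, since members were chosen with earlier results of these data known. DPT read 7.44 to 9.78 on day 5 (median 8.62) and 3.90 to 9.08 on day 7 (median 6.87), and 12 arrays of day 7 lay below all of day 5. The difference was -1.62 ± 0.31 (adjusted p = 4.77e-05), a 3.07-fold fall, and DPT was the 1 member called in that step within CN by itself (-2.88 ± 0.61, adjusted p = 0.0429), where 0.0291% of all probe sets were called, 0.0125% higher and 0.0167% lower. CN was the lowest arm of day 7 at 5.58 ± 1.52 (SD, n = 5), against 6.94 to 7.65 in the other arms. Later day means were 7.41 and 7.55, and neither later step was called over all arms. DPT correlated with the smooth muscle markers within groups (r = 0.47, 79 arrays), and without the arrays rich in them the fall was as large (-1.77).

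**Figure D3:**
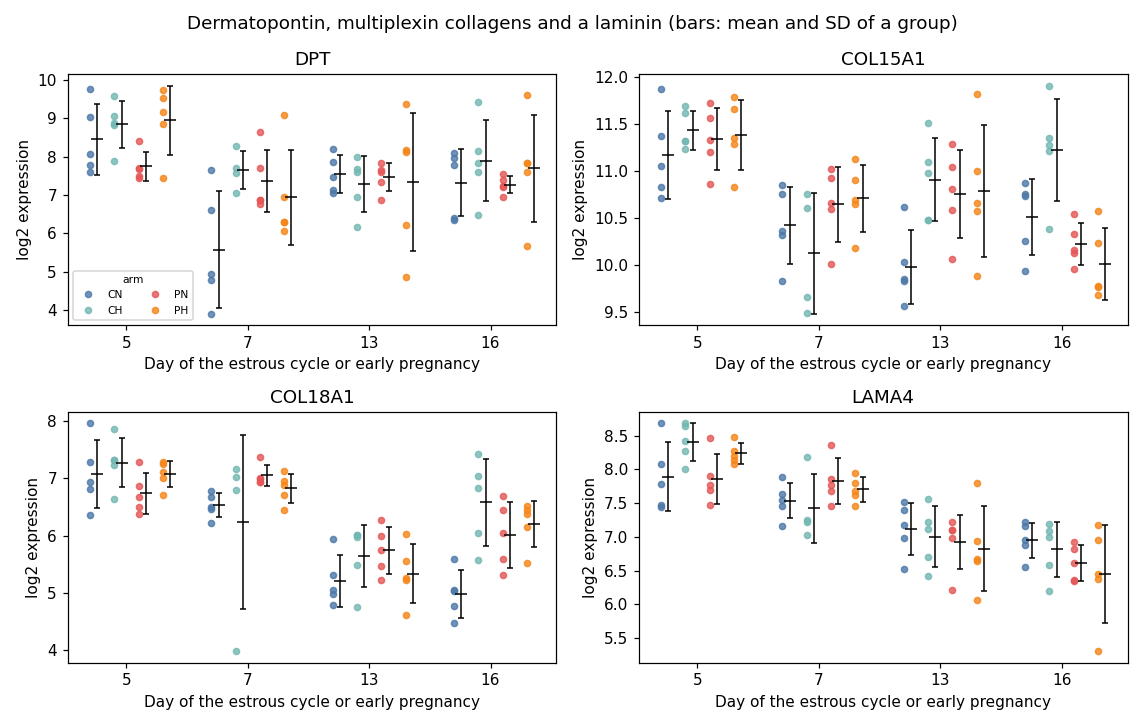
Log2 levels of DPT, COL15A1, COL18A1 and LAMA4 against day, with 1 point per array coloured by arm and black bars for the mean and SD of each group (n = 5, day 7 CH n = 4). DPT and COL15A1 drop from day 5 to day 7, COL18A1 drops from day 7 to day 13, and LAMA4 declines in both steps.

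Of the laminins, LAMA4, the alpha chain typical of vessel and muscle basement membranes, declined over the first pair of steps. Its brighter probe set had day means of 8.10, 7.63, 6.97 and 6.71, with steps of -0.48 ± 0.13 (adjusted p = 0.00461) and -0.65 ± 0.13 (adjusted p = 3.08e-05). LAMC1, the gamma chain shared by most laminins, has 6 probe sets, of which 5 were above the floor. All 5 were lower on day 13 than on day 7, by 0.09 to 0.58, and 2 of them were called; on day 16 a further one was lower by 0.25. LAMB3, a chain of the epithelial laminin that anchors cells to the basement membrane, moved the other way and rose by 0.61 ± 0.22 from day 7 to day 13 (adjusted p = 0.0193), at levels that straddle the floor (day means 2.54 and 3.15). LAMB1 was called lower on day 16 than on day 13 (-0.35 ± 0.12, adjusted p = 0.046), but in 24 of 40 fits that left out 1 array it was not. LAMB2, the only other laminin gene on the array, was not called in any step.

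Integrin alpha subunits that bind collagen and laminin are described first. ITGA2, which pairs with ITGB1 as a collagen receptor, read 5.83 to 9.84 on day 7 (median 9.04) and 6.52 to 7.84 on day 13 (median 7.38). Apart from CN 5 at 5.83 and CH 3 at 6.96, every array of day 7 lay above all of day 13, and the difference was -1.40 ± 0.19 (adjusted p = 4.29e-09). ITGA10, another collagen-binding subunit, was not called. ITGA7, a laminin receptor typical of muscle, fell by 0.87 ± 0.23 and then by 0.96 ± 0.23 in the first pair of steps; within groups it followed the smooth muscle markers weakly (r = 0.21). ITGA3, an epithelial laminin receptor, fell by 0.39 ± 0.13 from day 5 to day 7, a call lost without CH 5 of day 7, and then rose by 0.66 ± 0.13 (adjusted p = 1.57e-05) and by 0.40 ± 0.13 (adjusted p = 0.0317). The last call was lost without any 1 of CH 5 or PH 4 of day 13 or PN 4 or PH 1 of day 16, which left differences of 0.34 to 0.36.

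Alpha subunits that recognise the RGD motif of fibronectin, vitronectin and osteopontin were ITGAV, ITGA5 and ITGA2B. ITGAV, the partner of several beta subunits, had medians of 10.06, 9.35, 9.92 and 9.73 over the 4 days on its brighter probe set. It fell by 0.54 ± 0.10 (adjusted p = 5.27e-05) and rose again by 0.51 ± 0.10 (adjusted p = 4.46e-05), and the second probe set did the same (-0.45 and 0.43). ITGA5, which with ITGB1 forms the main fibronectin receptor, fell by 0.83 ± 0.18 from day 5 to day 7 on 1 of 3 probe sets and was not called later. ITGA2B, the alpha subunit of platelets, was called in no step.

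Among the beta subunits, ITGB5 changed more than any other member. The probe set with the lower mean (8.32) read 5.85 to 7.52 on day 5 (median 6.57), 5.86 to 7.42 on day 7 (median 6.83), 7.89 to 10.35 on day 13 (median 9.87) and 9.36 to 11.20 on day 16 (median 10.28). All 20 arrays of day 13 lay above all 19 of day 7. The rise was 2.83 ± 0.16 (adjusted p = 3.39e-23), 7.09-fold, and was called in each arm (2.68 in CN and 3.08 in CH, and 2.32 in PN and 3.22 in PH). A further 0.65 ± 0.16 was added by day 16 (adjusted p = 0.0052). The other ITGB5 probe set, with a mean of 14.01, did not show this. It read 13.80 to 14.28 in every array, near the arrays' highest values (14.92 to 15.37), and whether changes there are compressed was not tested. Within groups, with group means and so the change over days removed, its correlation with the first was -0.22 over 79 arrays. Its day 13 difference was 0.06 ± 0.03 (adjusted p = 0.0804). Its call on day 7 (-0.08) was lost under both other scalings. The 2 probe sets annotated to ITGB5 gave different values, and which transcript each reads was not tested.

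ITGB6, an epithelial partner of ITGAV, rose from the floor. It read 2.38 to 2.72 in all arrays of day 7, 2.47 to 4.71 on day 13 (median 3.31) and 2.86 to 5.90 on day 16 (median 4.10). The steps were 0.86 ± 0.17 (adjusted p = 2.51e-05) and 0.69 ± 0.17 (adjusted p = 0.00418), with day 7 at the floor of the scale. ITGB3, the beta chain of the vitronectin and osteopontin receptor, rose later, by 0.81 ± 0.15 from day 13 to day 16 on its bright probe set (adjusted p = 5.84e-05). Its arms did not move together, as described with progesterone below. ITGB3 was also called higher in that step on 2 probe sets near the floor (0.32 and 0.53), calls lost in 6 and 14 of 40 fits without 1 array.

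ITGB4, the beta chain of hemidesmosomes, fell in the steps in which ITGB6 and ITGA3 rose. Its medians were 6.22, 6.52, 5.47 and 4.59, with falls of 0.93 ± 0.19 to day 13 (adjusted p = 5.26e-05) and 0.79 ± 0.19 to day 16 (adjusted p = 0.00312). On day 16, 8 arrays lay below all of day 13. ITGB1, the common partner of the collagen, laminin and fibronectin receptors, changed little (day means 11.98, 11.83, 11.99 and 11.96), and its rise of 0.18 to day 13 was lost in 12 of 39 fits without 1 array and without the arrays rich in smooth muscle markers (0.14, adjusted p = 0.11).

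Integrins of leukocytes were mostly near the floor: 6 of the 8 alpha probe sets of this kind had means under 3. ITGB2 and ITGB7, their beta chains, were called lower on day 7 than on day 5 (-0.60 ± 0.21 and -0.75 ± 0.17). They followed the leukocyte markers within groups (r = 0.86 and 0.66, 79 arrays), and CH 3 of day 5 read 8.91 and 8.05 where the day medians were 4.85 and 3.89. Without that array ITGB2 differed by -0.40 (adjusted p = 0.0649) and ITGB7 by -0.56 (adjusted p = 1.13e-05). The ITGB2 call was lost in 7 of 39 such fits in all. ITGAE, known from lymphocytes inside epithelia, was higher and behaved otherwise: its correlation with the leukocyte markers within groups was -0.26. It read 7.59 to 8.43 on day 7 (median 8.11), 7.02 to 7.92 on day 13 (median 7.48) and 6.14 to 7.56 on day 16 (median 7.22). The falls were 0.64 ± 0.08 (adjusted p = 1.54e-10) and 0.35 ± 0.08 (adjusted p = 0.00106), and 16 arrays of day 7 lay above all of day 13.

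The proteins with an ITGB symbol that are no subunit varied less, except ITGBL1, a secreted relative of the beta chains, which fell by 1.07 ± 0.26 to day 13 and by 0.87 ± 0.26 to day 16. ITGB3BP was called higher by 0.26 on day 13, a call lost in 18 of 39 fits without 1 array.

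**Figure D4:**
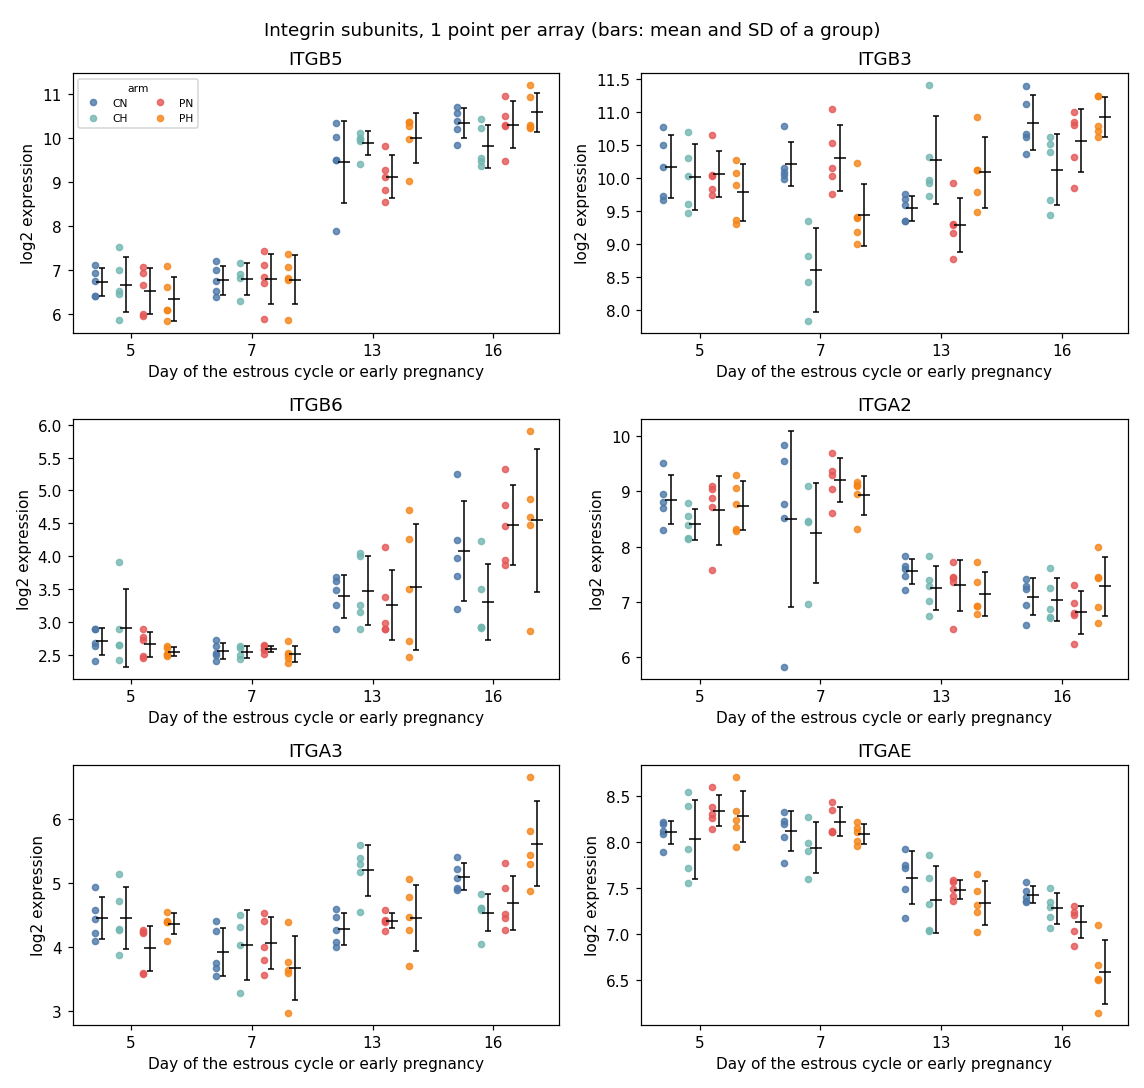
Log2 levels of 6 integrin subunits against day, with 1 point per array coloured by arm and black bars for the mean and SD of each group (n = 5, day 7 CH n = 4). ITGB5, drawn for the probe set that changed, separates completely between day 7 and day 13, ITGB6 leaves the floor on day 13, ITGA2 and ITGAE step down on day 13, ITGB3 is low in CH and PH on day 7, and ITGA3 is high in PH on day 16.

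Of 71 other genes of matrix assembly and adhesion, 58 were measured. On day 7, 32 of them were lower than on day 5 and 1 was higher, against 11.8% and 8.84% of all probe sets. The largest falls were in TNC (-1.63 ± 0.33), a matrix glycoprotein of remodelling tissue, LOXL1 (-1.27 ± 0.14), which cross-links elastic fibres, and TGFBI (-1.12 ± 0.19). FN1, fibronectin, fell by 1.05 ± 0.14. From day 7 to day 13, 20 fell and 8 rose, against 18.1% and 18.8% of all probe sets. SPP1, osteopontin, an RGD ligand of the ITGAV receptors, fell by 3.00 ± 0.33, MFAP5 by 1.76 ± 0.31 and THBS1 by 1.34 ± 0.11. BCAM, a laminin receptor, rose by 1.31 ± 0.13 and NID2, a basement membrane linker, by 0.84 ± 0.13. From day 13 to day 16, 4 rose and 4 fell, against 5.03% and 3.62% of all probe sets. Most of the 33 partners called on day 7 fell, as did most of the 28 called on day 13. In a fit of only the 12008 probe sets above the median level, 2518 fell and 1927 rose from day 5 to day 7. From day 7 to day 13, 3402 of these fell and 3774 rose, so changes of either sign were common at such levels.

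Markers of cell types were measured beside the members. Stromal fibroblast markers averaged 9.16, 9.27, 9.17 and 9.08 over the 4 days, with array ranges that overlapped throughout (8.78 to 9.62 over all arrays). Of their 8 genes, 1 was called higher and 3 lower on day 7, 3 higher and 1 lower on day 13, and 0 higher and 2 lower on day 16. For these and the marker counts below, 8.84% of all probe sets were higher and 11.8% lower on day 7. On day 13 the shares were 18.8% and 18.1%, and on day 16 they were 5.03% and 3.62%. Endothelial markers rose on day 13, 9 of 11 being called, from a mean of 5.74 to 6.19. Smooth muscle markers ranged from 6.94 to 10.67 on day 5, 6.55 to 10.43 on day 7, 6.37 to 11.83 on day 13 and 6.31 to 7.87 on day 16. Of their 10 genes, 2 were called lower on day 7. Their part in the members' falls was not tested beyond the values given without the 3 arrays. Epithelial markers averaged 8.08, 7.88, 8.16 and 8.34, and of their 11 genes 4 were called higher and 2 lower on day 7, 3 each way on day 13, and 1 higher on day 16. Of 10 leukocyte genes, 3 were called lower on day 7 and 1 higher on day 13.

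Levels of 29 member genes, picked by hand and each taken on its brightest probe set, were compared with each other within groups. The comparison ran from array to array, over 79 arrays and with group means removed. Of 406 pairs, 285 correlated above 0 and 121 below, with a median r of 0.14. Pairs of other probe sets were not computed, so whether these members moved together more than others was not tested. Among the highest, COL1A2 and COL3A1 correlated at r = 0.77, COL1A1 and COL1A2 at 0.73, COL1A1 and COL6A1 at 0.70 and LAMA4 and LAMC1 at 0.61. Over the 16 group means the first 3 of these pairs stood at 0.96, 0.96 and 0.98. The lowest pairs included ITGAV and ITGB4 (-0.46) and ITGA7 and ITGAV (-0.44). ITGB6 ran against COL3A1 (-0.34 within groups and -0.89 over group means). These pairs share their arrays and scaling, and the values are descriptions.

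Higher progesterone was compared with normal progesterone on each day, averaged over cyclic and pregnant heifers. On day 5, 1 of 100 members was lower and 0 higher, against 0.908% of all probe sets. COL27A1, a fibrillar collagen of cartilage and other developing matrix, read 9.22, 10.14, 9.68, 10.49 and 9.93 in CN, and 9.28, 8.51, 8.51, 8.95 and 8.25 in CH. In PN it read 9.65, 10.38, 9.58, 9.70 and 9.21, and in PH 8.74, 8.49, 8.08, 8.38 and 8.89. Every high-progesterone array was below every normal one except CH 1 at 9.28, which overlapped CN 1 and PN 5. The difference was -1.19 ± 0.26 (adjusted p = 0.00625), a 2.28-fold lower level, and was of similar size in cyclic and pregnant heifers. It kept its call in all 20 fits without 1 array. On day 7 the 4 arms lay between 8.86 and 9.19. The second COL27A1 probe set, near the floor, differed by -0.58 on day 5 (adjusted p = 0.0646).

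On day 7, 3 members were lower with high progesterone and 0 higher, against 2.84% and 1.85% of all probe sets and 4.7% either way. ITGB3 has 1 bright probe set, and its others, with means of 2.14, 2.69 and 3.01, were not called for progesterone on day 7. The bright probe set read 10.16, 9.99, 10.09, 10.79 and 10.04 in CN and 9.34, 7.84, 8.82 and 8.42 in the 4 CH arrays. It read 10.53, 11.04, 9.76, 10.15 and 10.04 in PN and 10.23, 9.41, 9.19, 9.003 and 9.40 in PH. Only PH 1 of the high-progesterone arrays overlapped the normal ones. The difference was -1.23 ± 0.21 (adjusted p = 8.45e-05), or 2.35-fold, and kept its call in all 19 fits without 1 array and under every other setting. On day 13 the same probe set was higher with the device, at 9.74 to 11.41 in CH against 9.35 to 9.75 in CN and 9.49 to 10.92 in PH against 8.78 to 9.93 in PN. That difference of 0.76 ± 0.21 did not pass (adjusted p = 0.0753). On day 16 the arms averaged 10.84 in CN and 10.13 in CH, and 10.57 in PN and 10.92 in PH. The test that the arms follow different courses over the days was passed by ITGB3 (F test, adjusted p = 0.000434), as by 6 members in all against 2.96% of all probe sets.

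COL5A2 was also lower with high progesterone on day 7. It read 9.10, 9.65, 9.39, 9.91 and 10.64 in CN and 8.86, 8.27, 8.96 and 9.24 in CH, and 9.22, 9.10, 9.99, 9.90 and 10.48 in PN and 9.38, 9.69, 8.61, 9.32 and 8.9997 in PH. The arms overlapped, the difference was -0.72 ± 0.18 (adjusted p = 0.0101), and the call was lost in a fit of day 7 alone (adjusted p = 0.138) and without the arrays far from their group mean (-0.52, adjusted p = 0.131). The third was ITGB1BP1, which binds the tail of ITGB1 (-0.38 ± 0.10, adjusted p = 0.0126), and whose call was lost without CH 3 of day 7 (-0.31, adjusted p = 0.0699). The ITGB1BP1 call was also lost in a fit of day 7 alone and without the arrays far from their group mean. Of the 58 partners, 5 were lower with high progesterone on day 7 (ASPN, PCOLCE, LOXL1, P4HA2 and P4HB) and 0 higher, against 2.84% and 1.85% of all probe sets.

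On days 13 and 16 no member passed for progesterone in limma, against 0.441% and 0.0958% of all probe sets (on day 16, 0.0625% higher and 0.0333% lower). On each of these days 8 of 100 members had an unadjusted p under 0.05, against 6.81% and 10.9% of all probe sets. On day 16, 12 members passed without the 2 arrays of narrow distribution, which are CH 3 of day 7 and PH 1 of day 13, against 7.1% of all probe sets. With array weights 23 members passed, against 23.9%. Within cyclic heifers of day 16, 2 members passed, 1 higher and 1 lower, against 2.92% of all probe sets. COL18A1 read 5.60, 5.05, 4.77, 4.47 and 5.03 in CN and 5.57, 6.04, 7.42, 6.83 and 7.05 in CH, a difference of 1.60 ± 0.34 (adjusted p = 0.00615) in which only CH 1 overlapped CN. In pregnant heifers COL18A1 stood at 6.02 ± 0.58 in PN and 6.20 ± 0.41 in PH (SD, n = 5), and the interaction of -1.42 was not called (adjusted p = 0.14). The other was the dimmer of the COL6A1 probe sets (-1.82 ± 0.49, adjusted p = 0.0297).

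Pregnant and cyclic heifers were compared on each day, averaged over progesterone. No member was called by limma on day 5, 7 or 13, with 13, 14 and 1 of 100 members at an unadjusted p under 0.05, against 9.87%, 7.82% and 2.58% of all probe sets. Few or none of all probe sets were called on those days (0.0167% on day 5, with 0.00833% in each direction, and 0% on days 7 and 13). On day 16, 5 members were lower in pregnancy and 1 was higher, against 1.03% and 2.13% of all probe sets and 3.16% either way. All 6 had the same sign at both progesterone levels. Within high-progesterone heifers 9 members passed, among them all 6, against 7.78% of all probe sets. Within normal-progesterone heifers none passed, against 0.658% of all probe sets, and 5 had an unadjusted p under 0.05, against 5.95%. The interaction test called none of the 6.

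The type I and III collagens were lower in pregnancy on day 16. COL3A1, on its probe set with a mean of 14.21, read 14.07, 14.17, 14.14, 14.05 and 13.82 in CN and 14.25, 14.01, 14.12, 13.83 and 14.12 in CH. It read 14.15, 14.07, 13.88, 13.47 and 13.91 in PN and 13.34, 13.42, 13.38, 12.99 and 14.21 in PH. PH 1 to PH 4 lay below every other array, while PH 5 at 14.21 was as high as the cyclic arrays. The difference was -0.38 ± 0.08 (adjusted p = 0.00164), and -0.36 ± 0.09 on the second probe set (adjusted p = 0.00849). COL1A2 differed by -0.40 ± 0.09 (adjusted p = 0.00329) on its brighter probe set and by -0.46 ± 0.14 on the other (adjusted p = 0.0624). In a fit of day 16 alone these calls were lost, with adjusted p = 0.164 and 0.24 for COL3A1 and 0.0828 for COL1A2. COL1A1 did not pass: its arms averaged 9.81 in CN and 9.52 in CH, and 9.30 in PN and 9.19 in PH.

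COL15A1 read 10.76, 10.74, 10.88, 10.26 and 9.94 in CN and 11.27, 11.91, 11.35, 10.38 and 11.21 in CH, and 10.55, 10.33, 10.13, 10.16 and 9.96 in PN and 9.69, 10.23, 9.79, 9.77 and 10.58 in PH. The pregnant arrays were low, and 4 of the CH arrays lay above all of them. The difference was -0.75 ± 0.19 (adjusted p = 0.0123), kept in all 20 fits without 1 array, and -0.58 ± 0.20 on the second probe set (adjusted p = 0.0944). On day 13 the means had been 9.98 in CN and 10.91 in CH, and 10.76 in PN and 10.79 in PH. Between those days the pregnancy difference itself moved by -1.08 ± 0.27 (adjusted p = 0.0241), and COL15A1 was the 1 member called, against 0.974% of all probe sets (0.0916% in that direction). The call was lost without PN 2 or PH 4 of day 13 or CH 2 of day 16 (-1.01 to -0.95), and without the arrays rich in smooth muscle markers (-0.95, adjusted p = 0.073).

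ITGAE was the member with the lowest adjusted p for pregnancy on day 16. It read 7.56, 7.35, 7.40, 7.47 and 7.36 in CN and 7.50, 7.29, 7.18, 7.06 and 7.35 in CH, and 7.21, 7.23, 7.03, 6.87 and 7.30 in PN and 6.50, 6.66, 6.51, 6.14 and 7.10 in PH. PH 1 to PH 4 lay below all the other arrays and PN overlapped the cyclic arms in part. The difference was -0.50 ± 0.11 (adjusted p = 0.00147) and kept its call in all 20 fits without 1 array. ITGB6 was the member that was higher: it read 3.97, 5.25, 3.70, 4.24 and 3.20 in CN and 2.90, 4.22, 2.93, 2.92 and 3.51 in CH, and 4.46, 4.78, 3.86, 5.33 and 3.94 in PN and 4.60, 4.47, 4.87, 5.90 and 2.86 in PH. CN and the pregnant arms overlapped, CH was low and PH 5 was the lowest of the 20. The difference of 0.82 ± 0.24 (adjusted p = 0.0349) lost its call in 11 of 20 fits without 1 array (0.65 to 0.82) and in a fit of day 16 alone (adjusted p = 0.297).

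**Figure D5:**
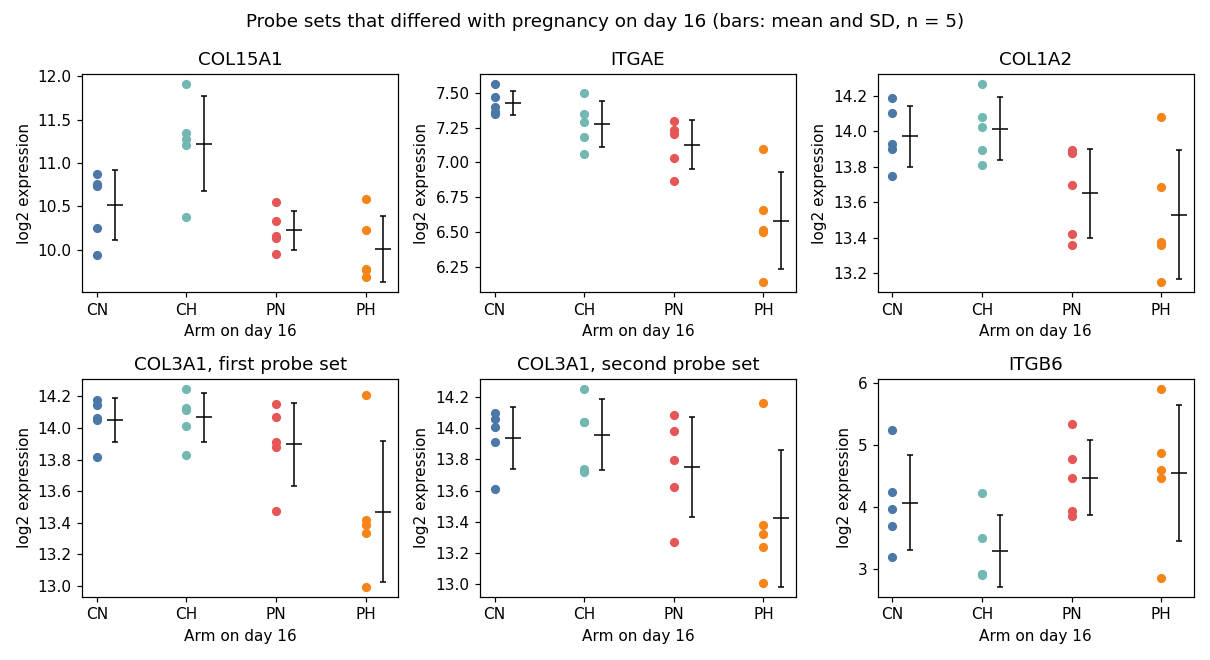
Log2 levels on day 16 of the 6 probe sets called for pregnancy, by arm, with 1 point per array and black bars for the mean and SD (n = 5). In the 5 collagen and ITGAE panels PH has the lowest mean and PH 5 is the highest array of its arm, and in the ITGB6 panel PH 5 is the lowest array of all.

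PH 5 of day 16 stood apart from the other 4 PH arrays in these genes. Without it 10 members were called for pregnancy in place of 6, against 5.3% of all probe sets. Epithelial markers were higher in PH on day 16 (mean 8.59 against 8.08 in CH, 8.26 in PN and 8.41 in CN). Of 11 endothelial markers 3 were called lower in pregnancy, against 1.03% of all probe sets. Stromal fibroblast markers averaged 9.09 to 9.13 in the other arms and slightly less in PH. Smooth muscle markers averaged 6.87 in pregnant and 7.30 in cyclic heifers of day 16. The ranges overlapped (6.31 to 7.60 and 6.47 to 7.87), and 0 of their 10 genes were called for pregnancy, against 3.16% of all probe sets. PH 2, PH 3 and PH 4 read 6.62, 6.50 and 6.31, while PH 1 and PH 5 read 7.60 and 7.46. The part of any of these markers in the lower collagen and ITGAE and the higher ITGB6 levels was not tested. Of the 58 partners, only P4HB, a subunit of the collagen-hydroxylating enzyme, was called for pregnancy on day 16 (-0.32 ± 0.08, adjusted p = 0.00531), against 3.16% of all probe sets.

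Pregnancy and progesterone interacted in 1 member on day 16, against 0.87% of all probe sets (0.62% in its direction), and by limma in 0 on the other days. There 1, 17 and 8 members had an unadjusted p under 0.05 on days 5, 7 and 13, against 2.86%, 19.4% and 10% of all probe sets, of which 0%, 0.025% and 0.0208% were called. ITGA3 read 5.41, 5.22, 4.90, 5.08 and 4.92 in CN and 4.06, 4.62, 4.83, 4.62 and 4.58 in CH, and 4.51, 4.27, 4.46, 5.32 and 4.93 in PN and 6.66, 5.81, 5.44, 5.30 and 4.89 in PH. All CH arrays lay below all CN arrays, while PH was above PN with overlap. The interaction was 1.48 ± 0.36 (adjusted p = 0.029). It lost its call in 5 of 20 fits, those without CN 2, CH 3, PN 2, PN 3 or PH 1, where it lay between 1.23 and 1.56, and in a fit of day 16 alone (adjusted p = 0.144). ITGA3 followed the epithelial markers within groups (r = 0.40, 79 arrays). On day 7 the count of members called for the interaction rose from 0 to 14 without CH 5 and to 10 without CH 2, all of them negative. In the same fits 13.4% and 10.3% of all probe sets were called, 12.9% and 9.59% as negative.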

How the data were processed

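The submitters' processing notes name RMA, GCRMA and limma, but which of the first pair made the values the authors deposited, 1 table of log2 values per probe set, is not given in the sources used here, so the treatment of low values is unknown. The 112 Affymetrix controls were left out and no filter on level was applied. Symbols came from the platform annotation and all 100 members matched the RefSeq gene table, used for names only. Group means were fitted with limma 3.58.1 (R 4.3.3, lmFit and eBayes) over 79 arrays and 24016 probe sets, with Benjamini-Hochberg adjustment within each comparison at 0.05. Day steps average the 4 arms. Differences are log2 with SE. On simulated data the fit found 91.6% of changes of 0.75 from day 7 to day 13 and 73.9% for pregnancy on day 16, and 100% of changes of 1.5 in both. The simulated data had independent normal noise, no outlying arrays and few changed probe sets (119 by 0.75 and 81 by 1.5). These rates may therefore not hold for the real arrays. The members and lists were chosen with earlier results of these data known. Named members are the 8 largest rises and falls of a comparison, up to 4 more per subfamily, and a list of standard chains. A replicate block, fits of the days alone, median centring, quantile normalization, only the probe sets above the median level, array weights and leaving out arrays were tried. Figures used matplotlib 3.10.9.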

Additional observations from a re-analysis of the deposited data

Results flagged for a closer look

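In 13 probe sets whose array values are described above, each group of 4 or 5 arrays was searched for a highest or lowest array far from the rest of its group. Of 208 groups 12 held one, and chance alone marks about 1 in 20. COL1A1 had 2 on day 16, CH 1 at 10.22 (others 9.30 to 9.41) and PH 5 at 10.44 (others 8.63 to 9.09). COL5A2 was low in PN 4 of day 13 at 8.03, and COL27A1 in PN 3 of day 7 at 8.31. COL18A1 was low in CH 3 of day 7 at 3.98 (others 6.79 to 7.16) and high in PN 2 of day 7 at 7.38. DPT was high in PN 2 of day 5 at 8.41. ITGA2 was low in PN 2 of day 5 at 7.58 and in PH 5 of day 7 at 8.32. ITGB3 was high in CN 4 of day 7 at 10.79. ITGB5 was low in CH 1 and PH 4 of day 13 at 9.41 and 9.02. PH 4 of day 13 and PH 5 of day 7 are among the 3 arrays rich in smooth muscle markers, and CH 3 of day 7 has a narrow distribution of values.

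Effects that differed between groups by a test of the difference itself were the interaction of pregnancy and progesterone on day 16 in ITGA3 (1.48), the move of the pregnancy difference between days 13 and 16 in COL15A1 (-1.08), and the F test of day by arm in 6 probe sets. Its adjusted p (limma) was 0.0111 for ITGB1BP1, 0.0439 for COL3A1, 0.0106 for ITGA3, 0.0322 for ITGAE, 0.000434 for ITGB3 and 0.0381 for COL15A1.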

How the results depend on the processing

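No called value changed its sign under any alternative that was run. Counts of called members that moved by over 1.5 times follow, with the share of all probe sets called in the same fit in parentheses. With array weights the count went from 15 to 24 (14.9%) from day 13 to day 16, from 1 to 3 (2.5%) for progesterone on day 5, from 0 to 3 (1.72%) on day 13 and from 0 to 23 (23.9%) on day 16, from 6 to 19 (15.3%) for pregnancy on day 16, from 0 to 4 (6.42%) and from 1 to 13 (13.7%) for the interaction on days 13 and 16, from 1 to 2 (2.85%) for the growth of the pregnancy effect and from 6 to 23 (25.2%) for day by arm. In fits of the days alone it went from 3 to 1 (0.929%) for progesterone on day 7, from 0 to 1 (0.583%) and from 1 to 0 (0.0375%) for the interaction on days 13 and 16, from 6 to 2 (1.56%) for pregnancy on day 16 and from 1 to 0 (0.858%) for its growth. Quantile normalization gave 1 (0.412%) for progesterone on day 13 and 2 (1.15%) for the interaction on day 16. The probe sets above the median level, which hold 39 members, gave 37 for any day (83% of the brighter probe sets, 94.9% of these members) and 1 (1.01%) for progesterone on day 13. Without the 3 arrays rich in smooth muscle markers the interaction on day 16 had 2 (1.05%) and the growth 0 (0.808%). Without the 2 narrow arrays progesterone on day 16 had 12 (7.1%) and the interaction 3 (1.46%). Without the 5 arrays far from their group mean, a choice made after seeing the data, the counts were 1 (3.04%) for progesterone on day 7, 13 (7.35%) on day 16, 3 (2.16%) for the interaction on day 16, 0 (1.1%) for the growth and 3 (3.44%) for day by arm. The causes were not tested.

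Leaving out 1 array at a time gave 1 to 2 for progesterone on day 5, 2 to 3 on day 7, 0 to 1 on day 13 and 0 to 4 on day 16, 0 to 14 and 0 to 3 for the interaction on days 7 and 16, 5 to 10 for pregnancy on day 16, 0 to 3 for its growth, and 3 to 8 for day by arm. Of all probe sets 13.4% were called where the interaction on day 7 had 14 members, 5.3% where pregnancy had 10, 1.58% where its growth had 3, and 0.479% to 0.824% where progesterone on day 16 had 4. The highest counts for pregnancy, its growth, progesterone (with CH 2) and the interaction (with CH 1) on day 16 came without PH 5 of day 16, and the 3 of day by arm came without CH 3 of day 7 or PH 1, PH 3 or PH 4 of day 16. The day steps gave 26 to 32, 31 to 35 and 12 to 17. Of 89 called values 75 kept their call in every such fit. Same-numbered arrays did not deviate together (mean r 0.03, 0.05, 0.02 and -0.01 on days 5, 7, 13 and 16), so numbers were not taken as pairs; with a replicate block all 89 calls were kept and none of 140 other values was gained, with 60 members in place of 59 called for any day, 29, 33 and 15 members called in the day steps, 6 for pregnancy on day 16 and 3 for progesterone on day 7. Members with means under 3 lie near the floor, where differences are compressed.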
